A study of Rattus norvegicus with 72 samples.

Results

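The regulators of G-protein signalling (Rgs) are represented by 9 of the 145 genes of the panel, taken as every gene whose symbol begins with Rgs. They are Rgs2, Rgs3, Rgs4, Rgs6, Rgs7, Rgs9, Rgs12, Rgs14 and Rgs19. Transcripts were measured by microfluidic quantitative reverse transcription PCR (qRT-PCR) in 72 samples from 40 rats. All animals were young, male, alcohol-naïve Sprague Dawley rats, untreated, housed one to a cage under a regular light cycle and kept on a calorie-restricted, alcohol-free liquid diet, the amount of which followed the intake of matched alcohol-fed animals. They were killed at ZT3, ZT5 or ZT9, the Zeitgeber time in hours after lights on, and all groups share this diet, so none represents freely fed rats. Each sample is the bilateral micropunch of one region from one animal, without pooling. The dorsal vagal complex (DVC), a brainstem centre of autonomic reflexes, was sampled at ZT3 in 7 animals, at ZT5 in 17 and at ZT9 in 15. The central nucleus of the amygdala (CeA), an output nucleus for emotional and autonomic responses, was sampled in 7, 14 and 12 animals, and 32 animals gave both regions.

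G-protein-coupled receptors act by loading Gα subunits with GTP, and signalling lasts until the GTP is hydrolysed. Rgs proteins share a domain that binds active Gα and speeds up this hydrolysis, so that they shorten signals from neurotransmitter and peptide receptors. Rgs2, Rgs3 and Rgs4 belong to the R4 subfamily, whose members are mostly small proteins with little beyond this domain. Rgs6, Rgs7 and Rgs9 form the R7 subfamily, which is found largely in neurons and is stable only as a complex with an atypical Gβ subunit. Rgs12 and Rgs14, of the R12 subfamily, also bind Ras-like GTPases and inactive Gα, and Rgs19 belongs to the RZ subfamily.

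Each value is a C_T, the PCR cycle at which the fluorescence of a reaction crosses a threshold. It is a log2 scale on which 1 cycle fewer stands for about 2-fold more cDNA, and a lower C_T therefore means more transcript. The values used are the authors' quantile-normalized C_T, which give every sample the same set of values and keep only the order of the genes within it. Differences between groups are given as expression, with the sign turned so that a positive difference means more transcript in the group named first, and −ΔΔC_T is obtained by subtracting a value from its region's mean at ZT5. Since each gene has its own assay, levels of different genes were not read against each other, apart from a within-sample difference of Rgs4 and Rgs2 compared between time points. In a tissue punch, fewer cells of a type and less RNA per cell cannot be told apart.

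All but 2 samples had between 0 and 9 failed reactions of 145. The other 2, CeA samples at ZT5 and ZT9 with 78 and 74 failed reactions, lacked all 9 Rgs genes and enter none of the values given for them. Rgs4 was missing in 1 further CeA sample at ZT5, and Rgs6 in 2 DVC samples at ZT5 and 1 CeA sample at ZT3. All ZT3 animals lie in the upper part of the animal numbers, so the animals were also described as 16 lower-numbered and 24 higher-numbered ones. The DVC had 6 lower-numbered animals at ZT5 and 10 at ZT9, the CeA had 5 and 7, and ZT3 had 0. What the numbers stand for is not given in the sources used here. The median non-normalized C_T of a sample averaged between 18.1 and 18.7 in the DVC groups and between 19.0 and 19.7 in the CeA groups. The noradrenaline transporter Slc6a2, a marker of noradrenergic neurons, was measured in 38 of 39 DVC samples and in 1 of 33 CeA samples, while the GABAergic marker Gad1 was measured in 37 and 32 samples.

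The assays of Rgs4, Rgs2 and Rgs14 carry the results on time and region, and their intron-spanning primers show which transcripts were counted. They are printed 5′ to 3′ in lower case throughout, since no part of them was singled out.
Rgs4 forward primer: caagatgtgcaaaggactcg
Rgs4 reverse primer: ccagccgatgtttcatatcc
Rgs2 forward primer: aacttttatcaagccttctcctga
Rgs2 reverse primer: acgctctgaatgcagcaag
Rgs14 forward primer: cctggtgggcaaagaaca
Rgs14 reverse primer: ccagtcgcacttcctggt

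Rgs4 and Rgs2 lie on the same chromosome in the RefSeq annotation of the rat assembly GRCr8, Rgs4 at chr13:84469593-84475884 and Rgs2 at chr13:58350063-58352666, both on the minus strand. They are the Rgs genes whose transcripts differed between time points in the DVC, so the sequence before their annotated starts is shown. The Rgs4 window covers the 250 bases up to the start (chr13:84475885-84476134) and the Rgs2 window the positions from −250 to −51 (chr13:58352717-58352916). Capitals mark a TATA box (TATAAA, on the gene's strand only), a CCAAT box and the half-site of the cAMP response element, TGACG, the last pair on either strand (ATTGG and CGTCA on the other).
Rgs4 upstream sequence: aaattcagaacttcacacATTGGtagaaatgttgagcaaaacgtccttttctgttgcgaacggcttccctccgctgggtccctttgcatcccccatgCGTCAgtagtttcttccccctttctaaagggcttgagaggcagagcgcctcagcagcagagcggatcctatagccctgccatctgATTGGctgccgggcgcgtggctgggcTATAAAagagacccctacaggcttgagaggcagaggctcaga
Rgs2 upstream sequence: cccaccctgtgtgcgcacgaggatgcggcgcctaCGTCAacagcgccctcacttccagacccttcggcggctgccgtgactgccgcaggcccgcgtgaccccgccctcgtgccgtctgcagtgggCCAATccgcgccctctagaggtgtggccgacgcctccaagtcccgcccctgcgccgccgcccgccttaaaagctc

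In the Rgs4 window the TATA box ran from −42 to −37, and reversed CCAAT boxes began at −232 and −68. A reversed TGACG ran from −153 to −149 in Rgs4 and from −216 to −212 in Rgs2. Over the 250 bases before all 33469 annotated starts, TATAAA was found in 8.06% of the windows and in those of 2 of the 9 Rgs genes, Rgs3 and Rgs4. CCAAT was found in 34.0% of windows and in Rgs2, Rgs4 and Rgs9, and TGACG in 18.2% and in Rgs2, Rgs3 and Rgs4. The E-box CACGTG, to which clock proteins can bind, was found in 5.59% of windows, and among these genes in Rgs7 and Rgs19. The GC box GGGCGG was found in 30.5% and in Rgs2, Rgs3, Rgs7, Rgs9 and Rgs12. These matches describe letters only.

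In the DVC, Rgs4 and Rgs2 had their highest expression at ZT5, and the other 7 genes did not pass the test over the 3 time points. Of the 145 genes, 15 passed the limma test of the time point in the DVC, which is 10.3% of the panel, against 2 of the 9 Rgs genes. Without adjustment, 4 Rgs genes had a p of at most 0.05, Rgs6 and Rgs7 in addition, beside 21.4% of the panel. In the CeA none of the 9 Rgs genes passed the limma test, with or without adjustment, beside 3.52% and 14.8% of the genes tested there.

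Rgs4, which acts on Gi/o and Gq proteins and is abundant in neurons, showed the largest differences in the family. Its normalized C_T in the DVC ran from 13.5 to 15.2 at ZT3, with a median of 14.7. At ZT5 it ran from 11.4 to 13.5, with a median of 11.4, and at ZT9 from 11.4 to 15.4, with a median of 13.5. All 7 ZT3 samples and 14 of the 15 ZT9 samples lay above the ZT5 median, thus with less transcript, and 5 of the 7 ZT3 samples lay above every ZT5 sample. The means were 14.5 ± 0.738 (SD, n = 7), 12.1 ± 0.928 (n = 17) and 13.9 ± 1.17 (n = 15).

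Expression of Rgs4 in the DVC was 5.20-fold lower at ZT3 than at ZT5, a log2 difference of −2.38 (SE 0.43, limma adjusted p = 1.39e-04). At ZT9 it was 3.48-fold lower than at ZT5, with a difference of −1.80 (SE 0.34, limma adjusted p = 2.90e-04). Permutation tests of single genes, adjusted over all genes, gave p = 0.00209 (exact) for ZT3 and p = 0.00399 for ZT9. Between ZT9 and ZT3 the difference was 0.58, with a 95% interval from −0.31 to 1.46, and did not pass (limma adjusted p = 0.636). Both passed comparisons share the ZT5 samples. At ZT3 against ZT5, 8 genes (5.52%) passed, of which 2 (1.38%) were lower at ZT3, and Rgs4 was the only Rgs gene among them. At ZT9 against ZT5, 11 genes (7.59%) passed, of which 3 (2.07%) were lower at ZT9, and 2 of these were Rgs4 and Rgs2.

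In the CeA, Rgs4 varied more between animals than between time points. Its normalized C_T ran from 13.5 to 16.5 at ZT3 (median 16.02, n = 7), from 11.4 to 16.9 at ZT5 (median 14.6, n = 12) and from 11.4 to 16.6 at ZT9 (median 14.4, n = 11). The 3 ranges lay over each other. The difference from ZT5 was −0.95 at ZT3, with a 95% interval from −2.61 to 0.72, and 0.44 at ZT9, with an interval from −1.02 to 1.90. The interval at ZT3 includes the value of −2.38 found in the DVC, and that at ZT9 does not reach the DVC value of −1.80. These differences pool the animal sets. In lower-numbered animals the mean C_T was 12.1 at ZT5 (n = 3) and 12.6 at ZT9 (n = 6). In higher-numbered ones it was 15.4 (n = 9) and 15.98 (n = 5), and 15.5 at ZT3. Expression was thus lower at ZT9 than at ZT5 within each set, opposite in sign to the pooled 0.44, and passed in neither.

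**Figure D1:**
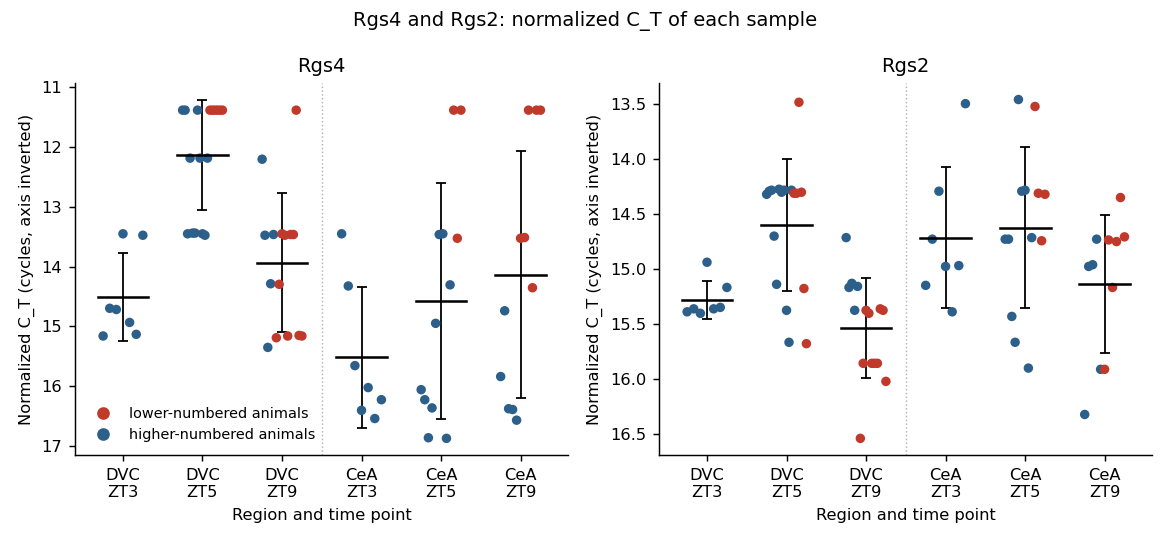
Normalized C_T of Rgs4 and Rgs2 (vertical axis, cycles, turned so that more transcript is higher) in every sample of the DVC and the CeA at ZT3, ZT5 and ZT9. Points are samples, coloured by lower- and higher-numbered animals, and bars are means and SDs. The DVC samples at ZT5 lie highest for Rgs4, with many at the same value of 11.38, and most lower-numbered CeA samples lie above the higher-numbered ones of their time point.

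Rgs4 reached the end of the normalized scale. Quantile normalization gives the gene with the lowest C_T in each sample the value 11.38, and Rgs4 was that gene in 10 of 39 DVC samples and 5 of 30 CeA samples. In the DVC these were 9 of the 17 samples at ZT5 and 1 of the 15 at ZT9, and in the CeA 2 at ZT5 and 3 at ZT9. At ZT3 there were 0 in either region. Samples at that value cannot be ordered by their normalized C_T, so the non-normalized values are given as well. Non-normalized Rgs4 in the DVC ran from 13.2 to 14.8 at ZT3, from 9.29 to 12.996 at ZT5 and from 9.88 to 16.1 at ZT9. On that scale the ZT3 and ZT5 samples did not overlap, which held for 2 of the 145 genes (1.38%). They did overlap on the normalized scale and after centring each sample on the median of its genes. With that centring, 6 of the 7 ZT3 samples lay above every ZT5 sample.

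The differences of Rgs4 in the DVC were larger where the samples were scaled without the quantiles. After centring each sample on the median of its genes, the difference of Rgs4 from ZT5 was −3.42 at ZT3 and −2.85 at ZT9, and without any normalization it was −2.81 and −2.35. Set against Rgs2 within the same sample, the non-normalized C_T of Rgs4 minus that of Rgs2 in the DVC was −0.62 ± 0.16 at ZT3 (SD, n = 7), −2.85 ± 1.47 at ZT5 (n = 17) and −1.43 ± 1.22 at ZT9 (n = 15). This within-sample difference, which a shift of all values of a sample cannot change, was largest at ZT5 in size and in spread. Rgs2 is not a steady reference, since it was itself lower at ZT9 than at ZT5 in the DVC.

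**Figure D2:**
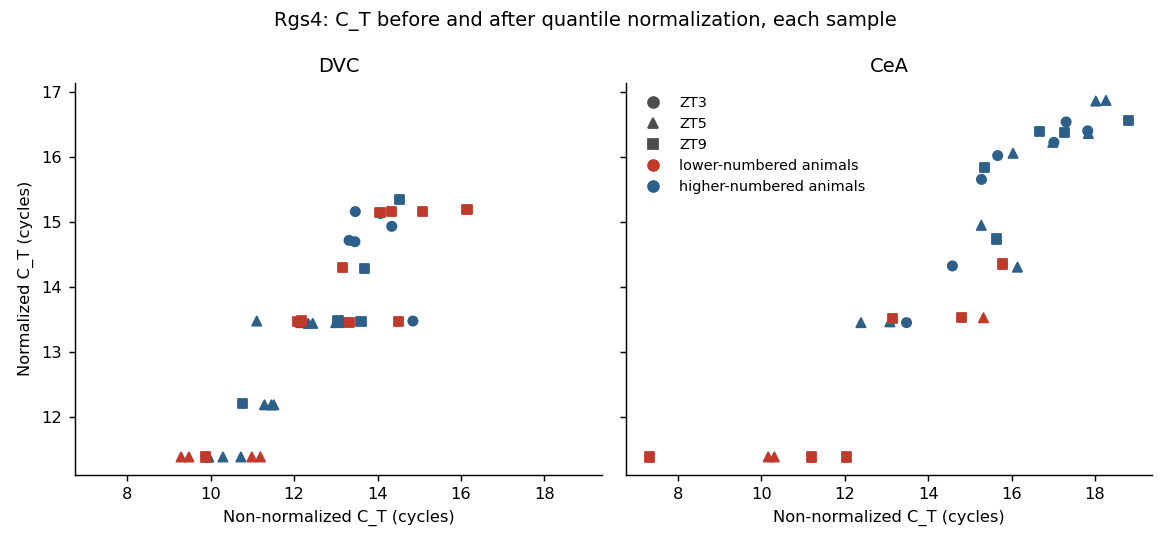
Non-normalized against normalized C_T of Rgs4 in each sample of the DVC and the CeA, with the non-normalized value on the horizontal and the normalized value on the vertical axis (both in cycles). Shapes mark the time points and colours the lower- and higher-numbered animals. The samples at 11.38 on the normalized axis, 10 in the DVC and 5 in the CeA, spread along the non-normalized axis.

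The level of Rgs4 also followed the animal numbers. In the CeA over ZT5 and ZT9, expression was higher by 3.35 on the log2 scale (SE 0.50, limma adjusted p = 5.56e-05) in lower- than in higher-numbered animals, the smallest p of all genes in a comparison that 30 genes (21.1%) passed and that was added after seeing the data. The non-normalized median of Rgs4 in the CeA at ZT5 was 10.3 in the lower-numbered (n = 3) and 16.1 in the higher-numbered animals (n = 9). At ZT9 the medians were 12.6 (n = 6) and 16.7 (n = 5), and at ZT3, in higher-numbered animals alone, 15.7. In the DVC the same comparison gave 0.50 (SE 0.36, adjusted p = 0.406), and 1.55 (adjusted p = 0.0194) after median centring. The part of whatever the numbers stand for in the time differences was not tested, beyond the values within each set of animals.

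Within the higher-numbered animals, Rgs4 in the DVC was lower at ZT3 than at ZT5 by a difference of −1.97 (limma adjusted p = 0.00525). At ZT9 the difference was −1.22 and did not pass (adjusted p = 0.235), whereas it passed after median centring (−2.12, adjusted p = 0.0165). Within the lower-numbered animals, which have no ZT3 sample, ZT9 minus ZT5 was −2.64 (limma adjusted p = 0.00138). All 6 of their ZT5 samples lay at 11.38, the end of the scale, with an SD of 0. Their spread is thus not measured there, which limits this difference and its p. The non-normalized medians of these animals were 9.93 at ZT5 and 13.7 at ZT9. With the animal set as a factor in the fit, the differences were −2.20 at ZT3 and −1.96 at ZT9. The direction was thus the same within both sets of animals, and whether its size differs between them was not tested.

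Cell type markers also differed between time points in the DVC. Clu, which is abundant in astrocytes and is the only astrocyte marker of the panel, was higher at ZT3 than at ZT5 by 0.96 (SE 0.27, limma adjusted p = 0.0220) and higher at ZT9 by 0.78 (adjusted p = 0.0101). Its lowest normalized C_T was also 11.38, the value that Rgs4 took in most ZT5 samples. After median centring, the differences of Clu were −0.21 (adjusted p = 0.547) and −0.02 (adjusted p = 0.962). Without normalization they were 0.40 (adjusted p = 0.342) and 0.48 (adjusted p = 0.256). The sign of Clu thus turned under median centring, where neither value passed, and not without normalization. That of Rgs4 stayed the same under each. Slc32a1, the vesicular GABA transporter, passed the test over the 3 time points (adjusted p = 0.0481) and neither comparison with ZT5. After median centring it was higher at ZT3 than at ZT5 by 0.86 (adjusted p = 0.0226). The other markers tested did not pass, and the part of cell makeup in these differences was not tested.

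Rgs2, an R4 member that acts mainly on Gq and is induced rapidly by neuronal activity, was lower in the DVC at ZT9 than at ZT5. Its normalized C_T ran from 14.9 to 15.4 at ZT3 (median 15.4), from 13.5 to 15.7 at ZT5 (median 14.3) and from 14.7 to 16.5 at ZT9 (median 15.4). All 7 samples at ZT3 and all 15 at ZT9 lay above the ZT5 median, and 6 of the 15 at ZT9 lay above every ZT5 sample. The means were 15.3 ± 0.170, 14.6 ± 0.597 and 15.5 ± 0.455 (SD, n = 7, 17 and 15).

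Expression of Rgs2 at ZT9 was 1.92-fold lower than at ZT5, a difference of −0.94 (SE 0.17, limma adjusted p = 2.90e-04; permutation adjusted p = 0.00362). At ZT3 the difference from ZT5 was −0.68 (SE 0.22, 95% interval −1.13 to −0.24) and missed the threshold (limma adjusted p = 0.0515; exact permutation adjusted p = 0.0889). It passed after median centring (−1.19, adjusted p = 0.00691) and with the animal set as a factor (−0.77, adjusted p = 0.0456). At ZT9 the difference was −1.21 in lower-numbered animals (adjusted p = 0.00770) and −0.48 in higher-numbered ones, where it did not pass (adjusted p = 0.442). Without normalization it was −0.93 (adjusted p = 0.0699). In the CeA, Rgs2 ran from 13.5 to 15.4, from 13.5 to 15.9 and from 14.4 to 16.3 at the 3 time points. There its expression at ZT9 minus ZT5 was −0.52, with a 95% interval from −1.06 to 0.03 that includes 0 (limma adjusted p = 0.379).

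Rgs3, the third R4 member, which occurs in short and long forms, differed little between time points. In the DVC its means were 19.3 ± 0.259, 19.4 ± 0.411 and 19.7 ± 0.446 at ZT3, ZT5 and ZT9 (SD), and in the CeA 20.2 ± 0.395, 20.1 ± 0.635 and 20.2 ± 0.513. No comparison of its time points passed, and the smallest p without adjustment was that of ZT9 against ZT3 in the DVC (−0.40, SE 0.19, limma adjusted p = 0.427). Its expression was lower in lower- than in higher-numbered animals, by a difference of −0.51 in the DVC (adjusted p = 0.0113, beside 14.5% of genes) and −0.68 in the CeA (adjusted p = 0.0191), opposite in sign to Rgs4.

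None of the R7 genes passed a comparison of time points. Rgs6, which in the heart and brain limits Gi/o signalling, had DVC values from 17.9 to 18.8 at ZT3 (median 18.6, n = 7), from 18.4 to 19.8 at ZT5 (median 18.7, n = 15) and from 18.3 to 19.6 at ZT9 (median 18.9, n = 15). Its highest expression in the DVC was at ZT3, 0.42 above ZT5 (SE 0.17, limma adjusted p = 0.186) and 0.51 above ZT9 (SE 0.17, adjusted p = 0.164), and neither difference passed. The 3 ranges overlapped. In the CeA its means were 19.8 ± 0.712 (n = 6), 20.1 ± 0.320 (n = 13) and 19.8 ± 0.373 (n = 11).

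Rgs7, widely expressed in brain, had DVC means of 19.2 ± 0.116, 19.1 ± 0.415 and 19.4 ± 0.321 at ZT3, ZT5 and ZT9, and its ZT9 minus ZT5 difference of −0.35 (SE 0.13) did not pass (limma adjusted p = 0.0860). In the CeA it was the steadiest of the 9 genes at ZT5, with an SD of 0.174 around 20.3. Rgs9, known for its forms in the retina and the striatum, had DVC means of 18.4 ± 0.198, 18.7 ± 0.440 and 18.7 ± 0.391 and CeA means of 19.3 ± 0.365, 19.5 ± 0.476 and 19.5 ± 0.873. No comparison of its time points passed. In the DVC it was lower in lower- than in higher-numbered animals (−0.47, adjusted p = 0.0219).

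Rgs12, a large scaffold protein, had a DVC mean of 18.8 ± 0.288 at ZT3, 19.1 ± 0.360 at ZT5 and 19.7 ± 2.09 at ZT9. The last SD comes from 1 sample, replicate 13, in which Rgs12 had a normalized C_T of 27.1, the highest of its 145 genes, and a non-normalized C_T of 30.4, although none of its reactions had failed. The other 14 samples ran from 18.5 to 20.2, with a mean of 19.2 ± 0.399. The difference between ZT9 and ZT5 was −0.60 (SE 0.45) with that sample and −0.07 without it. In the CeA the means were all 19.1, with SDs from 0.398 to 0.420.

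Rgs14, which joins Gi/o and Ras signalling and is known for its restriction of plasticity in hippocampal neurons, kept to separate ranges in the regions at each time point. In the DVC it ran from 20.7 to 22.2 at ZT3 (median 21.5), from 20.2 to 22.5 at ZT5 (median 21.3) and from 21.1 to 23.7 at ZT9 (median 21.5). In the CeA it ran from 17.6 to 18.9 (median 18.2), from 17.4 to 19.1 (median 18.4) and from 17.7 to 18.7 (median 18.3). Its largest time difference, ZT9 minus ZT5 in the DVC, was −0.37 (SE 0.20) and did not pass (limma adjusted p = 0.291). Rgs19, which binds Gαi at Golgi and vesicle membranes, had means from 20.3 to 20.5 in the DVC and from 20.5 to 20.6 in the CeA, with no time difference that passed.

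**Figure D3:**
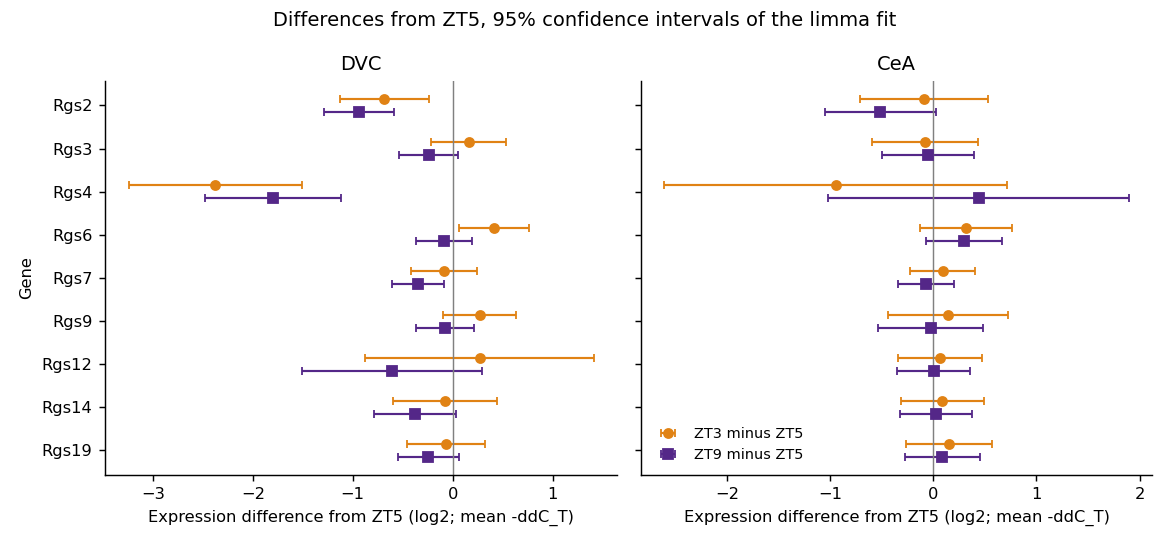
Differences in expression from ZT5 (horizontal axis, log2 units, with 95% intervals of the limma fit) of the 9 Rgs genes at ZT3 and ZT9 in the DVC and the CeA. The DVC intervals of Rgs4 lie farthest from 0, at −2.38 and −1.80, and all 9 DVC differences at ZT9 are negative on this quantile-normalized scale.

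Over the family, all 9 DVC differences between ZT9 and ZT5 were negative on the normalized scale, with a median of −0.35 beside 0.02 over all 145 genes, while only 2 passed. Without normalization 3 of the 9 were negative, in lower-numbered animals 6 and in higher-numbered ones 8. At ZT3 against ZT5, 5 of the 9 were negative and the median was −0.06. Between ZT9 and ZT3 in the DVC, 8 of 9 were negative and none passed limma's adjusted threshold, beside 2.07% of the panel. Without adjustment Rgs3 and Rgs6 had a p of at most 0.05, beside 11%. In the CeA, where 1.41%, 4.93% and 0.704% of genes passed for ZT3 against ZT5, ZT9 against ZT5 and ZT9 against ZT3, limma called none of the 9 genes. At an unadjusted p of 0.05 it also called none of them, beside 10.6%, 15.5% and 8.45%. A permutation test of Rgs6 at ZT9 against ZT5 gave p = 0.0482 before and p = 0.327 after adjustment over all genes. Leaving aside Rgs4 and Rgs2, the CeA differences from ZT5 ran from −0.08 to 0.32.

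The average of the family followed Rgs4 at ZT3 and more genes at ZT9. The mean −ΔΔC_T over all 9 genes in the DVC was −0.24 ± 0.143 at ZT3 (SD, n = 7), −0.03 ± 0.255 at ZT5 (n = 15) and −0.52 ± 0.372 at ZT9 (n = 15). It was above 0 in 1 of 7 samples at ZT3 and in 1 of 15 at ZT9. Without Rgs4 it was 0.03 ± 0.122, −0.02 ± 0.260 and −0.36 ± 0.345, and 5 of the 7 ZT3 samples lay above 0. Without Rgs2 as well, the remaining 7 genes averaged 0.13, −0.03 and −0.28. Leaving out the ZT9 sample with the high Rgs12 value changed the ZT9 averages to −0.47, −0.32 and −0.22 for 9, 8 and 7 genes.

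The lower average at ZT3 thus rested on Rgs4, since the average without it lay on the other side of 0, and the average at ZT9 was below 0 with and without Rgs4. Without normalization the sign turned for all 9 genes at ZT3 (0.28) and for the 8 genes without Rgs4 at ZT9 (0.050). In the CeA, the averages of all 9 genes were −0.01 ± 0.172 (n = 6), −0.01 ± 0.272 (n = 12) and 0.02 ± 0.259 (n = 11), and without Rgs4 they were 0.10 ± 0.303 at ZT3 and −0.03 ± 0.180 at ZT9. None of these differs from 0 by more than 1 SD. The averages are a description, since C_T differences of several genes were put together with equal weight.

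Between the regions, 7 of the 9 Rgs genes differed over the mean of the time points, beside 100 of the genes tested (70.4%). Rgs3, Rgs4, Rgs6, Rgs7 and Rgs9 were higher in the DVC, as were 41.5% of the panel, and Rgs14 and Rgs2 were higher in the CeA, as were 28.9%. The 3 R7 genes were all among those higher in the DVC, and the 2 R12 genes parted, with Rgs14 far higher in the CeA and Rgs12 without a difference that passed. The median difference of all genes was 0.11 towards the DVC.

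Rgs14 had the largest difference of the family. Over all time points its normalized C_T ran from 17.4 to 19.1 in the CeA (mean 18.3 ± 0.394, n = 31) and from 20.2 to 23.7 in the DVC (mean 21.5 ± 0.594, n = 39). The ranges did not overlap, which was the case for 6 of the 145 genes (4.14%). Expression was 9.53-fold higher in the CeA, a DVC minus CeA difference of −3.25 (SE 0.13, limma adjusted p = 1.03e-34), and in all 30 animals with both values it was higher in the CeA. The difference was −3.23 at ZT3, −3.06 at ZT5 and −3.47 at ZT9.

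The R7 genes and Rgs3 were higher in the DVC by factors between 1.66 and 2.25. Rgs6 differed by 1.17 (SE 0.11, 2.25-fold, limma adjusted p = 6.84e-16) and was higher in the DVC in 28 of 28 animals. Rgs7 differed by 1.04 (SE 0.09, 2.05-fold, adjusted p = 1.07e-17) and was higher in 30 of 30 animals. Rgs9 differed by 0.82 (1.76-fold) and was higher in 24 of 30 animals, and Rgs3 differed by 0.73 (1.66-fold) and was higher in 29 of 30. These 4 genes and Rgs14 passed at each of the 3 time points. At ZT9, Rgs9 was lost with the median C_T as a covariate, and Rgs3 and Rgs6 in higher-numbered animals after median centring. Over the 6 groups, the DVC means of Rgs6, Rgs7 and Rgs9 all lay on one side of the CeA means, and the gap between the nearest groups was larger than the SD of either.

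The region difference of Rgs4 was largest at ZT5. It was 1.22 over the mean of the time points (SE 0.35, 2.32-fold higher in the DVC, limma adjusted p = 0.00174). At ZT5 it was 2.44 (SE 0.52, 5.42-fold, adjusted p = 4.99e-05), at ZT3 it was 1.01 (SE 0.74, adjusted p = 0.262) and at ZT9 it was 0.20 (SE 0.55, adjusted p = 0.794). Other scalings gave 3.13 to 3.98 for the Rgs4 difference at ZT5. The largest came without normalization, where the median of all genes at ZT5 was 0.93 towards the DVC. At ZT9 the animal sets parted: higher-numbered animals had a mean Rgs4 C_T of 13.8 (DVC) and 15.98 (CeA), a difference of 2.23 (limma adjusted p = 0.00425), and lower-numbered animals had 14.0 and 12.6, the opposite order. The difference between the sets was not tested. In higher-numbered animals alone the Rgs4 difference over the mean of the time points was 2.03. Within animals, Rgs4 was higher in the DVC in 18 of 29, lower in 8 and equal in 3. The level was highest in the DVC at ZT5, and that was the one neighbouring pair in the order of its 6 groups whose gap exceeded both SDs.

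The remaining genes differed little between regions. Rgs2 was 1.24-fold higher in the CeA (−0.31, SE 0.15, limma adjusted p = 0.0492), in 19 of 30 animals. This call rests on the scaling and on single samples, since the difference was 0.02 after median centring, 0.52 after median centring within each of the 2 sets of assays (told apart here by which were missing together in the 2 samples with many failures) and 1.06 without normalization, and it was lost in 38 of the 72 fits that left out 1 sample. Rgs19 differed by 0.18 (95% interval −0.04 to 0.40, adjusted p = 0.140) over the mean of the time points and by 0.36 at ZT5 (adjusted p = 0.0467), a call that 15 of the 72 fits lost, as did median centring (0.25) and higher-numbered animals alone (0.40). Over the mean of the time points Rgs19 passed with 0.36 when the median C_T was a covariate, 0.56 after centring per set of assays, 1.10 without normalization and 1.14 with quantiles per region. Under the last 2 settings the median of all genes was itself 1.10 and 1.12 towards the DVC, so the Rgs19 and Rgs2 values there are close to that of the panel or not far above it. Rgs12 differed by −0.10 (interval −0.60 to 0.41, adjusted p = 0.748), and by 0.08 (SE 0.10, adjusted p = 0.492) without the DVC sample at ZT9 with the high Rgs12 value, which was left out after seeing the data. By time point, 5 Rgs genes passed at ZT3 (panel 45.8%), 7 at ZT5 (59.2%) and 5 at ZT9 (58.5%).

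**Figure D4:**
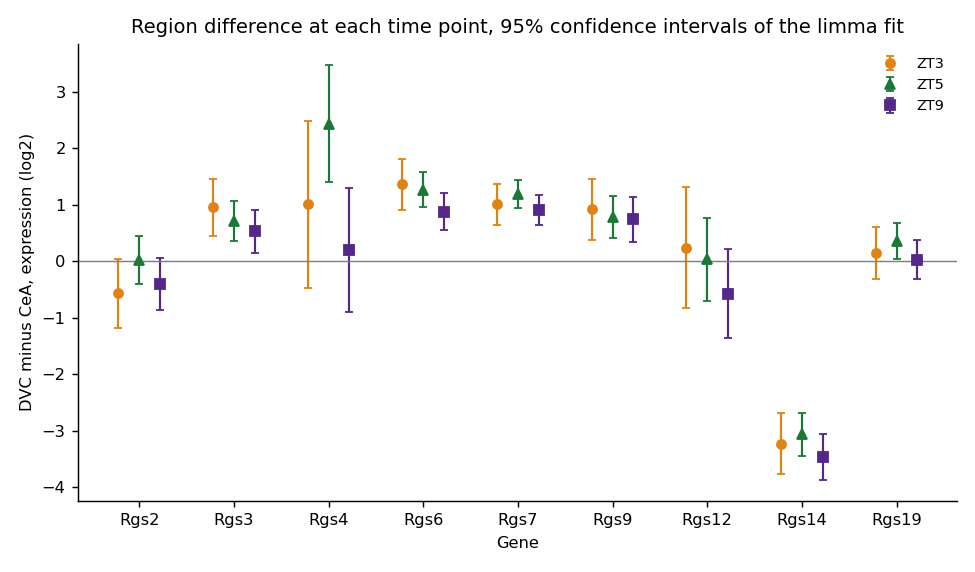
DVC minus CeA difference in expression (vertical axis, log2 units, with 95% intervals of the limma fit) of the 9 Rgs genes (horizontal axis) at ZT3, ZT5 and ZT9. Rgs14 stands alone between −3.47 and −3.06, the R7 genes lie above 0 at each time point, and the Rgs4 values spread from 0.20 at ZT9 to 2.44 at ZT5.

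Markers differed between the regions too. The NMDA receptor subunit Grin1 (−1.62), the CRF-binding protein Crhbp (−1.57) and Clu (−0.48) passed and were higher in the CeA. The GABAergic markers Gad1 (−0.19) and Slc32a1 (−0.23) did not pass. How far cell makeup enters the region differences of the Rgs genes was not tested.

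Whether the time course of a gene differed between the regions was asked with the interaction of time point and region. None of the genes tested passed it in limma (0%), and 15 (10.6%) had an unadjusted p of at most 0.05, of which Rgs4 was the only Rgs gene (p = 0.0149 in limma, adjusted p = 0.352). The result that Rgs4 and Rgs2 changed in the DVC and not in the CeA is thus not a shown difference between regions. The alignment score of the study, which is low where the mean time courses of the regions part, was 2.64 for Rgs4, the lowest of the 144 genes ranked. Rgs2 had 3.88 (rank 22) and Rgs12 had 3.79 (rank 19), but 4.71 (rank 94) without the DVC sample at ZT9 with the high Rgs12 value. The other 6 genes had ranks from 43 to 116. The score has no error.

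The 9 genes varied together only in part from sample to sample. For each of the 36 pairs in each region, Pearson's r was computed across samples after removing the mean of each time point, with permutation p-values adjusted over the 72 pairs. In the DVC the r of the pairs ran from −0.35 to 0.56, 28 of 36 were positive and the median was 0.20, beside a median of 0.00 over the 5886 pairs of the panel. Before adjustment 11 of the 36 pairs passed, beside 37.2% of the panel's pairs. The median was 0.27 among the 28 pairs without Rgs4 and 0.09 among the 8 with it. All 9 Rgs genes belong to the same set of assays, of 74 genes. A shift of that set within a sample would enter every Rgs pair. The panel's pairs also join genes of different sets of assays, and pairs within a set were not summarized apart. Whether the Rgs genes vary together more than other genes of their set was thus not tested, in either region.

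After adjustment, 3 DVC pairs passed, and none involved Rgs4 or Rgs2. Rgs7 and Rgs14 had r = 0.56 over 39 samples (rho = 0.62, permutation adjusted p = 0.00684), with 0.57 without the 2 samples farthest from the median. Within lower-numbered animals r was 0.58, and within higher-numbered ones 0.56. Rgs3 and Rgs19 had r = 0.49 (rho = 0.52, adjusted p = 0.0162), with 0.78 and 0.61 within the sets. Rgs3 and Rgs9 had r = 0.54 (rho = 0.53, adjusted p = 0.00924), but 0.06 within the 16 lower-numbered animals against 0.51 within the 23 higher-numbered ones. Rgs2 and Rgs4 had r = 0.42 (rho = 0.34) and did not pass (adjusted p = 0.0685).

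In the CeA, 5 pairs passed, all made of Rgs3, Rgs4, Rgs6 and Rgs12, and 10 of 36 passed before adjustment, beside 18.8% of 5995 panel pairs. Rgs3 and Rgs12 varied together over 31 samples (r = 0.66, rho = 0.62, permutation adjusted p = 0.00432), as did, over 30 samples each, Rgs6 and Rgs12 (r = 0.62, rho = 0.56, adjusted p = 0.00792) and Rgs3 and Rgs6 (r = 0.53, rho = 0.58, adjusted p = 0.0125). Over 30 samples Rgs4 ran opposite to Rgs12 (r = −0.65, rho = −0.67, adjusted p = 0.00540) and to Rgs3 (r = −0.65, rho = −0.64, adjusted p = 0.00684). The levels of Rgs4 and Rgs3 in the CeA differed between the 2 sets of animals, so the r of the pairs were also taken within each. For Rgs4 and Rgs12 r was −0.66 over 9 lower-numbered and −0.69 over 21 higher-numbered animals, and for Rgs3 and Rgs4 −0.11 and −0.62. The positive pairs were measured in 10 lower-numbered and 20 or 21 higher-numbered animals. Their r was 0.56 and 0.70 for Rgs3 and Rgs12, 0.32 and 0.69 for Rgs6 and Rgs12, and 0.28 and 0.66 for Rgs3 and Rgs6.

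**Figure D5:**
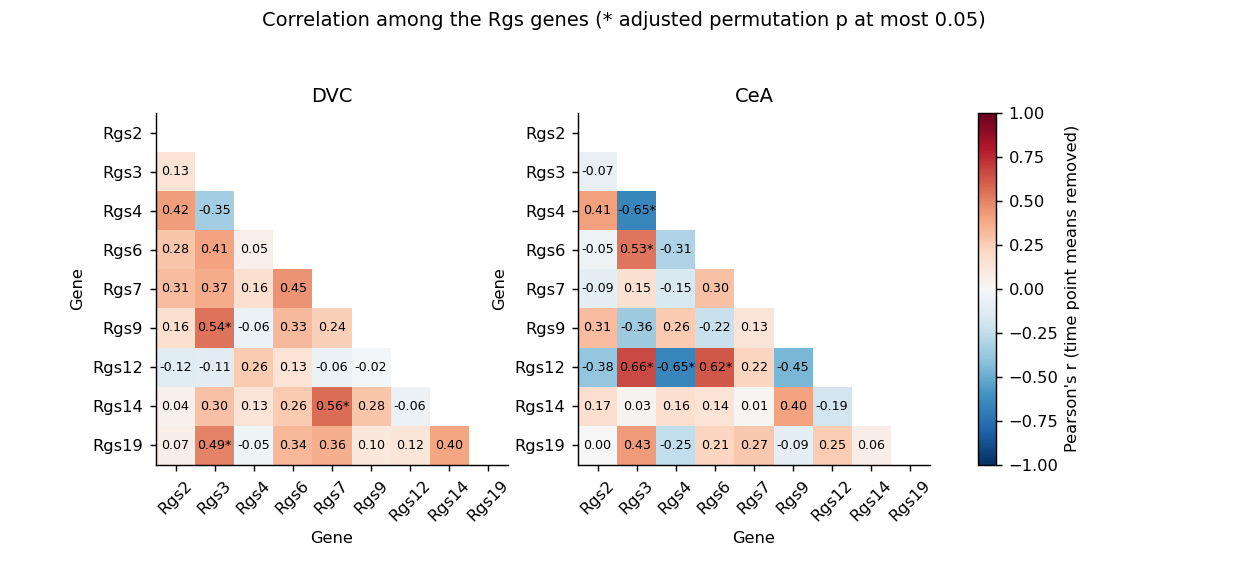
Pearson's r of each pair of the 9 Rgs genes across samples of the DVC and of the CeA, time point means removed, on a colour scale from −1 to 1, with asterisks at an adjusted permutation p of at most 0.05. Rgs4 has its 2 strongest negative values with Rgs3 and Rgs12 in the CeA, and the largest r is 0.66, of Rgs3 and Rgs12 in the CeA.

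The pairs of one region share their samples, and a common shift of a sample enters every pair. Without normalization, 24 DVC and 28 CeA pairs passed, and after median centring 12 and 10 passed, so the counts depend on the scaling. No share of the panel's pairs was computed after adjustment or under these scalings. These counts and the adjusted counts above therefore do not show more correlation among Rgs genes than in the panel. Between the regions of one animal, none of the 9 genes passed the test of correlation (28 to 30 animals, adjusted permutation p from 0.939 to 0.987). The largest r was 0.32, of Rgs3 (rho = 0.35, permutation p = 0.104 before adjustment). For Rgs4, r between regions was 0.19, and after median centring it was 0.48 (permutation p = 0.0127, adjusted p = 0.115), falling to 0.17 without the 2 farthest animals.

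The other genes of G-protein signalling on the panel gave no time difference that passed. Of 15 transducers, kinases, arrestins and effectors and 6 receptors, none passed limma's adjusted tests of the time point and of the interaction. Unadjusted, 2 passed the test over the DVC time points, 2 that over the CeA time points and 1 the interaction. Between the regions 12 of 20 tested passed, 5 higher in the DVC and 7 higher in the CeA, beside 70.4% of the panel. Among them the opioid receptor Oprm1, which couples to Gi/o, was higher in the DVC (1.66) and the inositol trisphosphate receptor Itpr1, downstream of Gq, was higher in the CeA (−2.10), both chosen here after their values were seen.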

How the data were processed

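RNA from micropunches was extracted with the RNeasy or the AllPrep kit (which kit for which sample is not given in the sources used here), reverse transcribed, preamplified for 14 cycles and measured on microfluidic dynamic arrays. The authors deposited C_T values, which are on a log2 scale, before and after quantile normalization of all 72 samples. Normalization with limma returned the deposited normalized values to within 4.99e-09 cycles. Failed reactions were left missing. Their number and the number of animals limit the precision, and the amount of starting cDNA is unknown. Columns were matched to samples by region and animal number in the labels.

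Limma 3.58.1 (R 4.3.3) fitted the 3 time points in each region, and the 6 groups for region and interaction, with Benjamini-Hochberg adjustment over all genes having at least 2 values per group and a threshold of 0.05. Intervals are at 95%. Permutation tests were two-sided, exact where a group had under 10 values and otherwise of 100000 draws. The rest was computed in Python 3.11.15 (pandas 2.3.3, scipy 1.17.1, numpy 2.4.6), and figures were drawn in matplotlib 3.10.9. The scripts were tested on simulated data. The samples of the regions from one animal are paired by the animal number in the labels, and the deviations of both regions from their group means correlated with a median r of 0.14 over 30 animals, with 19 above 0.1. Replicate numbers at different time points mark different animals.

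The 9 genes, the lists and the tests were chosen with earlier results of these data known. All 9 genes are named, other G-protein genes were to be named where they passed a time point or interaction test (the 2 named were chosen by region difference), the markers by their region difference (some are not reported here), and for Rgs4 and Rgs2 the 3 most alike genes. Alternatives were per-region quantiles, median centring, median centring per set of assays (inferred from shared missing values), no normalization, samples with under 10% failures, higher-numbered animals only, the animal set as a factor, the median C_T as a covariate, complete genes, the methods' per-gene analysis, a replicate or animal block and leaving out each sample. Sequences came from the study's primer list and RefSeq (GRCr8), in which all 9 genes were found.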

Additional observations from a re-analysis of the deposited data

How the results depend on the processing

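Leaving aside fits without single samples, the counts of Rgs genes or pairs that passed and the family averages were compared over all alternatives run. So was the alignment rank of Rgs4, which stayed the lowest. A count was taken as unchanged within 1.5 times its value, and an average within its SD. By this rule 251 were unchanged, 14 counts rose past 1.5 times or from 0, 9 fell, 3 averages moved and 3 changed sign. The unchanged ones include averages at ZT5, which lie near 0 by definition and could hardly change, so 251 overstates the stability. Single genes can cross the threshold within a count taken as unchanged. In the DVC at ZT3 against ZT5, 2 Rgs genes passed in place of 1 (Rgs2 added to Rgs4) under median centring, median centring per set of assays, the animal set as a factor and genes measured in every sample, and with the combinations, chosen after seeing the data, of median centring with that factor and with higher-numbered animals. Without 1 sample the count was 1 to 2. At ZT9 against ZT5 it was 1 without normalization, 0 in higher-numbered animals and 1 in those after median centring, and 2 to 3 without 1 sample. The test over the time points in the DVC gave 1 gene without normalization and 1 in higher-numbered animals. The interaction gave 1 gene, Rgs4, with the animal factor and median centring. With quantiles per region, 9 Rgs genes differed between regions at ZT3 and 8 at ZT9. The median difference of all genes, over the mean of the time points, was then 1.12 towards the DVC. It was 0.11 on the authors' normalized scale and 1.10 without normalization. Over the mean of the time points 8 Rgs genes differed with the median C_T as a covariate, with centring per set and without normalization, and 9 with quantiles per region. Without 1 sample, 6 to 7 differed over the mean of the time points, 6 to 7 at ZT5 and 5 to 6 at ZT9.

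The region difference of Rgs2, −0.31, became 1.29 with quantiles per region, 0.017 after median centring, 0.52 after centring per set, 1.06 without normalization and 0.34 in higher-numbered animals after centring. Without 1 sample it ran from −0.35 to −0.25. Pairs of Rgs genes that passed numbered 12 in the DVC and 10 in the CeA after median centring, 24 and 28 without normalization, 5 in the DVC by Spearman's rho, 0 in either region at ZT3 alone, and 3 at ZT5 and 0 at ZT9 alone in the CeA. No panel share was computed for these counts. The family average without normalization was 0.28 at ZT3 in the DVC with all 9 genes, 0.66 there with 8 and 0.050 at ZT9 with 8, and 0.35 and 0.51 at ZT3 in the CeA with 9 and 8. Centring per set gave −0.45 at ZT3 in the DVC. The cause of these changes was not tested, apart from the shift that quantiles per region bring.

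With the replicate number or the animal as a block, 7 Rgs genes differed between regions over the mean of the time points and 2 over the time points in the DVC, as without it. Within-animal differences at ZT5 gave 6 genes, without Rgs19. The block changed no other call. The lower end of the normalized scale limits what can be said of Rgs4.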

Other observations

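Among panel genes outside the family, those whose sample-to-sample values after removal of time point means were most like Rgs4 in the DVC were cav2 (Pearson's r = 0.38 over 39 samples), Prkce (0.34) and Pak2 (0.32). In the CeA they were Rasgrp1 (0.60 over 30 samples), Scn4b (0.59 over 29) and Grin2b (0.58 over 30). For Rgs2 they were Rasa2 (0.46), Pdpk1 (0.42) and Gria3 (0.41) in the DVC and Itpr3 (0.46), Ppp1cc (0.41) and Gabrb1 (0.36) in the CeA. The samples of a region share normalization and depth, and the r are a description.

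A normalized Rgs4 value at the lowest point of the scale was seen in 6 of 6 lower-numbered and 3 of 11 higher-numbered DVC animals at ZT5, and in 5 of 9 lower-numbered and 0 of 21 higher-numbered CeA animals with a value. Dixon's criterion, applied to the 18 sets of ZT3 values (9 genes in both regions, 6 or 7 samples each), marked no sample as lying apart.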
